A study of Mus musculus with 9 samples.

Results

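The mouse mitochondrial genome accounts for 37 of the 29756 entries in the deposited expression table, taken as every entry whose gene name starts with mt-. They are 13 protein genes, 2 ribosomal RNA genes and 22 tRNA genes, and all 37 passed the filter on low values. RNA was measured in HT-22 cells, an immortalised mouse hippocampal neuronal line, in 3 intervention, 3 experimental and 3 control libraries. The study's title names hemin, an oxidised form of haem, as the stimulus and PPP8, a bioactive micelle, as the therapy. The labels give no agent, dose or time for any group, so the groups keep their label names and no treatment is assigned to them. The 3 groups share the cell line, and no genotype or further treatment is given. Whether the 3 libraries of a group came from separate cultures is not labelled, so p-values cover the spread among the libraries, which may be technical.

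Mitochondrial DNA is a small circle transcribed from both of its strands into long precursors that run through protein, rRNA and tRNA genes. In most places tRNAs sit between the longer genes, and cutting at the tRNA ends releases the mature RNAs. The proteins are core subunits of respiratory complexes I, III and IV and of the ATP synthase, complex V. The rRNAs and tRNAs of the circle serve the translation of these proteins. Every other subunit, and the proteins that copy the circle, transcribe it and take part in that translation, come from nuclear genes.

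Levels are in FPKM, the deposited unit, which counts fragments per base of gene and per size of library. The table holds no read numbers, so the depth of each library is unknown, and FPKM summed to 316912 to 339943 per library. The labelled cell type was checked against markers. Of 10 neuron markers, 3 reached 1 FPKM in any library, with Tubb3 at 5.69 to 8.46 FPKM, Syn1 at 2.51 to 6.88 FPKM and Snap25 at no more than 1.05 FPKM. The hippocampal markers Prox1 and Neurod1 stayed at or below 0.03 and 0.02 FPKM, and 0 of the 10 astrocyte, microglia and oligodendrocyte markers reached 1 FPKM. Summed neuron markers were 10.1 to 12.1 FPKM in intervention, 13.2 to 13.3 FPKM in experimental and 13.4 to 18.1 FPKM in control libraries, and the part of this difference in the results that follow was not tested.

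The share of all FPKM held by the 37 genes did not separate the groups. It was 16.5%, 17.8% and 16.7% in the intervention libraries, 17.9%, 17.0% and 17.2% in the experimental libraries and 16.6%, 17.6% and 18.3% in the control libraries. All 3 groups overlapped, with means of 17.0% ± 0.699 in intervention, 17.4% ± 0.469 in experimental and 17.5% ± 0.879 in control cells (SD, n = 3 each). The 2-sided exact permutation test gave p = 1.0 for experimental against control, p = 0.6 for intervention against control and p = 0.5 for intervention against experimental, where 3 against 3 libraries cannot give less than 0.1. The sign of the experimental-control difference, -0.107 percentage points, turned to 0.0801 without experimental replicate 2 and to 0.3 without control replicate 3. In bulk RNA of this kind, fewer cells of a type and less RNA per cell cannot be told apart.

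The 13 protein genes spanned a wide range of levels that was much the same in the 3 groups. mt-Co1, the catalytic subunit of complex IV (cytochrome c oxidase), was the highest in every group, at 10398 ± 684 FPKM in intervention, 10360 ± 339 in experimental and 9165 ± 494 in control cells (SD, n = 3 each). mt-Nd3, a small membrane subunit of complex I (NADH dehydrogenase), was the lowest, at 378 ± 24.7 FPKM in intervention, 380 ± 8.74 in experimental and 336 ± 51.0 in control cells. Between these ends the order in control cells was mt-Atp8, mt-Nd1, mt-Cytb, mt-Co2, mt-Atp6, mt-Nd2, mt-Co3, mt-Nd4, mt-Nd4l, mt-Nd5 and mt-Nd6. Several neighbours in that order lay within each other's spread, such as mt-Cytb at 5144 ± 296 and mt-Co2 at 5140 ± 516 FPKM, or mt-Nd4 at 2452 ± 186 and mt-Nd4l at 2406 ± 249 FPKM.

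Of the 13 protein genes, mt-Co1 alone was called in experimental against control cells, where a call is a limma Benjamini-Hochberg adjusted p under 0.05 over all 11974 tested entries. That is 7.69% of the 13, beside 74% of all tested entries. mt-Co1 had 9758, 11119 and 10318 FPKM in the intervention libraries, 10739, 10086 and 10253 in the experimental libraries and 8804, 9728 and 8964 in the control libraries. Every intervention and experimental library was above every control library. The mean was 1.13-fold higher in experimental than in control cells (log2 difference 0.18, SE 0.07, adjusted p = 0.0414) and 1.13-fold higher in intervention than in control cells (log2 difference 0.18, SE 0.07, adjusted p = 0.0428). In experimental against control cells the adjusted p was 0.0627 to 0.133 without control replicate 1 or 3, without any 1 experimental replicate or without intervention replicate 3. In intervention against control cells it was 0.0574 to 0.13 without control replicate 1 or 3, without any 1 experimental replicate or without intervention replicate 2 or 3. After quantile normalization the difference was 0.00 in both comparisons. That method sets the top ranks equal in every library, so this 0.00 does not test the call.

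In intervention against control cells mt-Co1 was again the only protein gene called, 7.69% of the 13 beside 65.3% of all tested entries. mt-Co3, another core subunit of complex IV, had 3270, 3321 and 3296 FPKM in intervention, 3316, 3240 and 3129 in experimental and 2833, 3191 and 2978 in control libraries. Its intervention libraries all lay above the control libraries, but it missed the threshold (1.1-fold, log2 difference 0.14, SE 0.06, adjusted p = 0.0585). In intervention against experimental cells 0 of 13 protein genes were called by limma, beside 19.5% of all tested entries, and 0 had an unadjusted p under 0.05. mt-Nd2, a complex I subunit, came nearest, at 3705 ± 150 FPKM in intervention and 3932 ± 214 in experimental cells (limma adjusted p = 0.386).

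**Figure D1:**
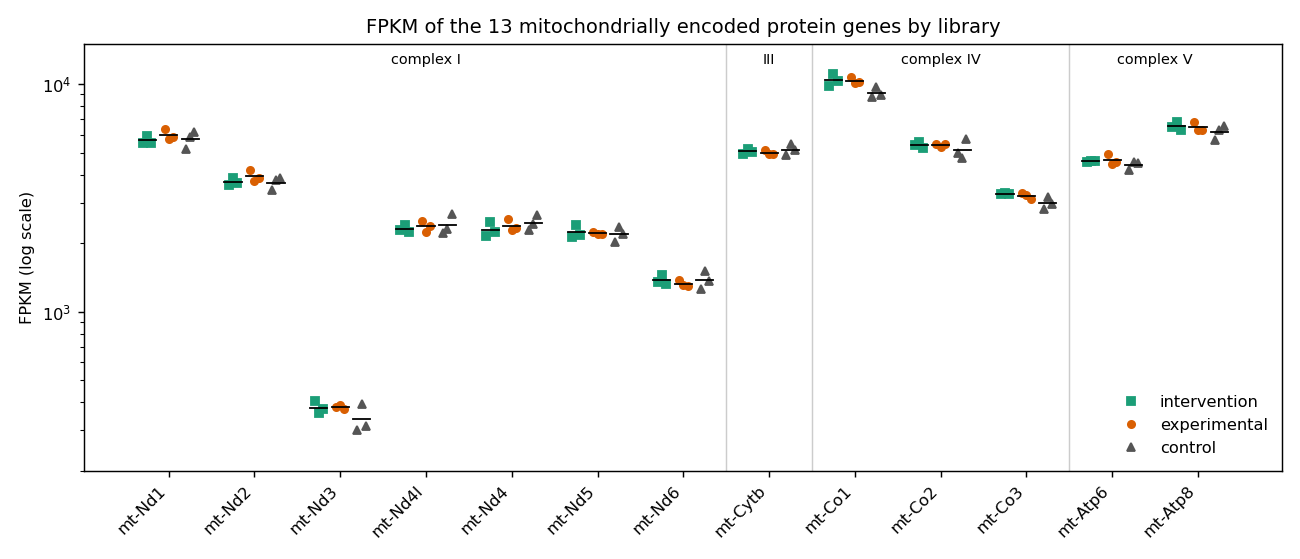
FPKM of the 13 mitochondrially encoded protein genes on a log axis, grouped by respiratory complex, with 1 point per library and a bar at the mean of each group of 3 (intervention left, experimental middle, control right). The groups lie close together for most genes, and mt-Co1 has its 3 control libraries, 8804 to 9728 FPKM, below the other 6.

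Of all tested entries 23.5% were called higher and 50.5% lower in experimental against control cells, 2809 and 6047 entries, which became 4321 higher and 4399 lower after median-ratio scaling. The median log2 difference over the 13 was 0.07 in experimental against control, 0.03 in intervention against control and -0.003 in intervention against experimental cells. Over all tested entries it was -0.21 in experimental against control, -0.10 in intervention against control and 0.10 in intervention against experimental cells. Median-ratio scaling brought the median of all entries to -0.004 in experimental against control cells, and then 12 of the 13 protein genes were called higher and all 13 had a positive difference. Under that scaling 6 of 13 were called higher in intervention against control cells, beside 3999 of all 11974 tested entries. In intervention against experimental cells 0 of 13 were called, beside 645 entries higher and 792 lower. After quantile normalization, which sets the top ranks equal in every library, 5 of 13 were called lower in experimental against control cells and 3 in intervention against control cells. Over all 11974 tested entries 4432 and 3913 were called lower there. How many protein genes are called, and in which direction, therefore differs between scalings. A ratio of FPKM within a library does not depend on a scaling by 1 factor per library, although quantile normalization would change it.

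One such ratio sets the 13 mitochondrial protein genes against the nuclear genes for subunits of the same complexes, of which 71 of 73 listed genes were in the table. The nuclear subunits summed to 2898, 2496 and 2750 FPKM in intervention, 2349, 2450 and 2310 in experimental and 2966, 3109 and 2798 in control libraries. The 13 mitochondrial genes summed to 51808, 55357 and 52278 FPKM in intervention, 55891, 52264 and 52830 in experimental and 48000, 52591 and 53096 in control libraries. The experimental libraries had the lowest nuclear sums, with no overlap with either other group, while the mitochondrial sums of all 3 groups overlapped. The log2 ratio of the 2 sums averaged 4.29 ± 0.16 in intervention, 4.5 ± 0.0795 in experimental and 4.11 ± 0.119 in control cells (SD, n = 3 each). It was 0.387 higher in experimental than in control cells, with no overlap (2-sided exact permutation p = 0.1, the smallest possible). It was 0.179 higher in intervention than in control cells and 0.208 lower in intervention than in experimental cells, and in both cases the libraries overlapped (exact permutation p = 0.2 each). A non-overlap of this kind is frequent here: relative to the sum of the 13 protein genes, 72.7% of all tested entries separated experimental from control libraries.

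Complex by complex, the mitochondrial-to-nuclear ratio of every experimental library was above every control library. The log2 difference between experimental and control means was 0.444 for complex I, 0.36 for complex III, 0.226 for complex IV and 0.457 for complex V. The median log2 difference of the 13 protein genes was itself 0.277 above that of all tested entries in this comparison. That is a median over single genes and not a ratio of sums. Whether the rise against nuclear subunits was particular to these complexes was not tested. Complex V was also above control in every intervention library (log2 difference 0.294), and complex I was lower in every intervention than in every experimental library by 0.313 on the log2 scale. Each of these separations has an exact permutation p of 0.1, and over the 60 ratio comparisons the smallest adjusted p was 0.231, so 0 pass a correction.

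**Figure D2:**
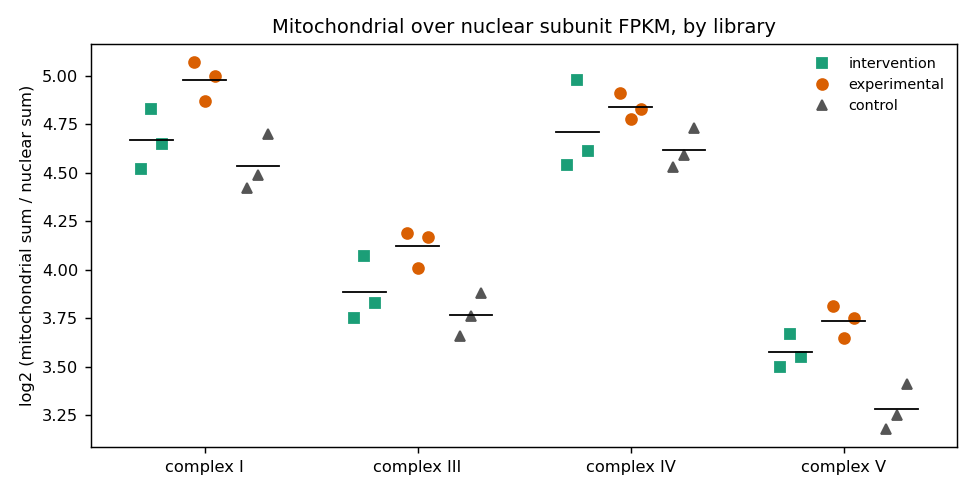
Log2 ratio of summed mitochondrial to summed nuclear subunit FPKM for complexes I, III, IV and V, 1 point per library and a bar at each group mean (intervention left, experimental middle, control right). In all 4 complexes the experimental libraries lie above the control libraries, and intervention libraries overlap the control libraries except in complex V.

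Among themselves the 13 protein genes kept nearly fixed proportions, with small shifts. mt-Co1 made up 18.8%, 20.1% and 19.7% of their sum in intervention, 19.2%, 19.3% and 19.4% in experimental and 18.3%, 18.5% and 16.9% in control libraries, higher in every library of both other groups than in control. mt-Cytb, the complex III subunit that binds haem b, made up 9.51%, 9.37% and 9.66% in intervention, 9.17%, 9.45% and 9.31% in experimental and 10.1%, 10.4% and 9.66% in control libraries. The mt-Cytb share was therefore lower in experimental than in control cells in every library. mt-Nd6, the complex I subunit that is the only protein gene on the opposite strand to the other 12, made up 2.58% ± 0.041 in intervention, 2.47% ± 0.0219 in experimental and 2.69% ± 0.156 in control cells (SD, n = 3 each). Every experimental library was below every library of the other groups in the mt-Nd6 share, by 0.22 percentage points against control on average. Each separation has an exact permutation p of 0.1, and the smallest adjusted p over the 39 share comparisons was 0.325. The strand of the counting is not given in the sources used here, so mt-Nd6 fragments cannot be told apart from transcripts of the other strand, and its end overlaps mt-Nd5 by 14 bases.

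Nuclear copies of mitochondrial genes bear on these levels. A BLAST search of the mitochondrial transcripts against nuclear GENCODE M21 transcripts (at least 95% identity over at least 50% of the mitochondrial gene) matched 8 mitochondrial genes to 9 nuclear entries, all present in the table. On chromosome 1, 6 of these pseudogenes, together with Gm29216, a copy of part of mt-Co1, lie side by side between positions 24611535 and 24616197 (GRCm38, minus strand). Their FPKM followed the mitochondrial genes: Gm28661 was at 0.965 to 1.0 times mt-Co2 over the 9 libraries, Gm28437 at 0.999 to 1.01 times mt-Co3, Gm10222 at 1.01 to 1.02 times mt-Nd4l and Gm10925 at 1.07 to 1.08 times mt-Atp6. Gm28438 was at 1.06 to 1.26 times mt-Nd3, Gm28439, which covers 63.6% of mt-Nd4, at 0.628 to 0.662 times mt-Nd4, and Gm29216 at 0.125 to 0.153 times mt-Co1. The other copies were low, for example Gm13340 on chromosome 2, a match of mt-Co1, at 6.02 to 8.37 FPKM.

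Over the bases that aligned, 5 of the 7 chromosome 1 copies were 100% identical to their mitochondrial genes, Gm29216 was 99.8% and Gm28438 99.7% identical. Fragments of identical stretches cannot be told apart, so the levels of mt-Co2, mt-Co3, mt-Atp6, mt-Nd3, mt-Nd4l and mt-Nd4 are uncertain as single genes. With the copies added, mt-Co2 averaged 10550 FPKM over the 9 libraries, mt-Co1 10420, mt-Atp6 9404, mt-Co3 6355, mt-Nd4l 4739, mt-Nd4 3350 and mt-Nd3 769. The order of levels therefore changed, with mt-Co2 beside mt-Co1 at the top. The comparisons between groups moved little: with the copies added, mt-Co1 was the only protein gene called in experimental against control cells (adjusted p = 0.0408) and in intervention against control cells (adjusted p = 0.042). The 37 genes with their copies held 22.3% ± 0.806 of all FPKM in intervention, 22.8% ± 0.591 in experimental and 22.9% ± 1.16 in control cells (SD, n = 3 each).

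As deposited, mt-Rnr1 rose and mt-Rnr2 fell against control, though mt-Rnr2 did not fall in experimental against control cells after median-ratio scaling. mt-Rnr1, the 12S RNA of the small mitochondrial ribosomal subunit (chrM:70-1024, plus strand, GRCm38), had 320.5, 302.7 and 282.8 FPKM in intervention, 386, 328 and 337 in experimental and 233.6, 282.3 and 264.8 in control libraries. The experimental libraries were above all others, and the intervention libraries lay above the control libraries by a narrow margin. mt-Rnr1 rose 1.35-fold in experimental against control cells (log2 difference 0.43, SE 0.08, adjusted p = 0.00103) and kept its call in all 20 alternative settings. In intervention against control cells it was 1.16-fold higher (log2 difference 0.22, SE 0.08, adjusted p = 0.0452). That call was lost, with adjusted p of 0.0573 to 0.172, without control replicate 1 or 3, experimental replicate 3 or intervention replicate 1 or 2, and the difference was -0.00 after quantile normalization.

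mt-Rnr2, the 16S RNA of the large subunit (chrM:1094-2675, plus strand), had 634.1, 691.8 and 577.9 FPKM in intervention, 704.1, 651.1 and 662.5 in experimental and 736.1, 791.1 and 845.4 in control libraries. The control libraries were the highest, without overlap. mt-Rnr2 fell by 0.23 on the log2 scale in experimental against control cells (SE 0.08, adjusted p = 0.0172) and by 0.32 in intervention against control cells (SE 0.08, adjusted p = 0.0038). After median-ratio scaling the experimental-control difference was 0.01, and the call was lost without control replicate 3 (adjusted p = 0.059), experimental replicate 2 (0.0586) or experimental replicate 3 (0.0513). The intervention-control call held in all leave-one-out fits but had an adjusted p of 0.0893 with median-ratio scaling. Both rRNAs were thus called in each comparison with control, where 74% of all tested entries were called in experimental against control and 65.3% in intervention against control cells. In intervention against experimental cells 0 of the 2 rRNAs were called by limma, beside 19.5% of all tested entries, with mt-Rnr1 at an unadjusted p of 0.0322 (log2 difference -0.21, adjusted p = 0.0995).

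The ratio of mt-Rnr1 to mt-Rnr2 was 0.505, 0.438 and 0.489 in intervention, 0.548, 0.504 and 0.509 in experimental and 0.317, 0.357 and 0.313 in control libraries. Every intervention and every experimental library was above every control library, by 1.45-fold in intervention and 1.58-fold in experimental cells on average (2-sided exact permutation p = 0.1 each, the smallest possible). The intervention and experimental libraries overlapped. Per the labels' protocols the libraries were made with an mRNA-seq kit from total RNA, so rRNA levels here may not follow their abundance in the cell, and this was not tested.

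**Figure D3:**
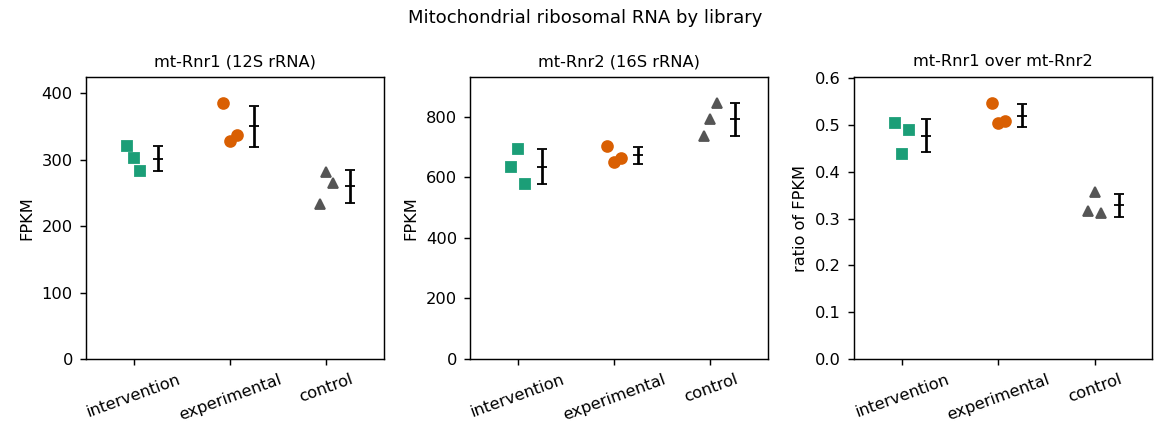
FPKM of mt-Rnr1 and mt-Rnr2 and their ratio, 1 point per library, with the mean ± SD of each group of 3 beside the points (intervention left, experimental middle, control right). Control libraries are lowest for mt-Rnr1 and for the ratio, at 0.313 to 0.357, and highest for mt-Rnr2.

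The tRNA genes showed the largest differences of the mitochondrial genome, in both directions. Their FPKM is uncertain: at 59 to 75 bases they are shorter than a usual library fragment, and fragments of precursors or of a neighbouring gene that reach into a tRNA cannot be told apart from the mature tRNA. The libraries were made with an mRNA-seq kit, so FPKM over tRNA genes may not follow mature tRNA in the cell, which was not tested. Rises and falls of tRNAs below are of this FPKM. Their levels ran from mt-Tl1 at a mean of 1077 FPKM over the 9 libraries to mt-Tf, the tRNA for phenylalanine, at 2.16 FPKM. In experimental against control cells 16 of 22 were called, 4 higher and 12 lower, which is 72.7% and close to the 74% of all tested entries. Of the 22, 8 (36.4%) were called with a difference of at least 1 log2 unit, beside 11% of all tested entries. In intervention against control cells 14 of 22 were called (63.6%, beside 65.3%), 4 higher and 10 lower, and 7 of them (31.8%, beside 5.55%) differed by at least 1 log2 unit. The median log2 difference of the 22 was -0.46 in experimental against control and -0.31 in intervention against control cells. After median-ratio scaling 8 were called higher and 12 lower in experimental against control cells, beside 4321 higher and 4399 lower of 11974 tested entries. The libraries did not overlap for 17 of 22 tRNAs in experimental against control cells (77.3%, beside 76.2% of all tested entries) and for 15 in intervention against control cells (68.2%, beside 68.7%).

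Sequences are given here for the tRNAs called higher in both comparisons with control, mt-Tm, mt-Tq and mt-Td, and for 4 of those that fell in experimental against control cells: mt-Tk and mt-Tv, with the lowest differences, mt-Tw, with the smallest adjusted p, and mt-Tt, which had the highest difference between intervention and experimental cells. The anticodon, the triplet that reads the codon, is printed in capitals. They are DNA letters of the tRNA's own strand, from GENCODE M21 transcripts on GRCm38.
mt-Tm (methionine, chrM:3845-3913, plus strand): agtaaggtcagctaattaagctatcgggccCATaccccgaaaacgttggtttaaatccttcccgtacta
mt-Tq (glutamine, chrM:3772-3842, minus strand): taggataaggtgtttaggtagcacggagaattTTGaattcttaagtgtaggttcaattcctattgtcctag
mt-Td (aspartate, chrM:6942-7011, plus strand): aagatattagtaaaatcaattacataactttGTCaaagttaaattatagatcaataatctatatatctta
mt-Tk (lysine, chrM:7700-7764, plus strand): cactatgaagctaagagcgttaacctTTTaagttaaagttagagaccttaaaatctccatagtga
mt-Tv (valine, chrM:1025-1093, plus strand): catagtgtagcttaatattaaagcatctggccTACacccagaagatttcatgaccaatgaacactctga
mt-Tw (tryptophan, chrM:4950-5016, plus strand): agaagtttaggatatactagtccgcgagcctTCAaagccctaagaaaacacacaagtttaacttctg
mt-Tt (threonine, chrM:15289-15355, plus strand): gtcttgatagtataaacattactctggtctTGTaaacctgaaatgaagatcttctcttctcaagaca

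The tRNAs for isoleucine, glutamine and methionine lie together between mt-Nd1 and mt-Nd2, and they did not move alike. mt-Tm, which reads the start codon as well as internal methionine codons, had 216.1, 230.9 and 214.1 FPKM in intervention, 270.3, 250.1 and 252.2 in experimental and 94.7, 104.1 and 119.8 in control libraries. All 6 intervention and experimental libraries were above all control libraries. mt-Tm rose 2.42-fold in experimental against control cells (log2 difference 1.28, SE 0.08, adjusted p = 4e-07) and 2.07-fold in intervention against control cells (log2 difference 1.05, SE 0.08, adjusted p = 2.19e-06). mt-Tq had 71.4, 67.5 and 62.9 FPKM in intervention, 82, 77.3 and 76.7 in experimental and 41.2, 49.9 and 56.1 in control libraries, again without overlap with control. It rose 1.6-fold in experimental (adjusted p = 0.000105) and 1.37-fold in intervention cells (adjusted p = 0.00202) against control. mt-Ti, the isoleucine tRNA at the start of the cluster, was at 33.6 ± 2.96 FPKM in intervention, 35.0 ± 4.07 in experimental and 36.3 ± 7.43 in control cells, with overlapping groups and no call (log2 difference -0.04, adjusted p = 0.823 in experimental against control cells).

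The largest fall among the mitochondrial genes in either comparison with control was that of mt-Tk, the lysine tRNA between mt-Co2 and mt-Atp8. It had 11, 9.25 and 10.8 FPKM in intervention, 8.66, 8.45 and 6.45 in experimental and 35.7, 36.6 and 38.9 in control libraries. The control libraries were all at least 35 FPKM and no other library passed 11 FPKM. The experimental mean was 0.212 times the control mean (log2 difference -2.11, SE 0.1, adjusted p = 9.68e-08) and the intervention mean 0.279 times the control mean (log2 difference -1.75, SE 0.1, adjusted p = 4.66e-07). The coding neighbours of mt-Tk, mt-Co2 and mt-Atp8, were not called in either comparison, with experimental-control differences of 0.07 each on the log2 scale.

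mt-Tv, the valine tRNA between the 2 rRNA genes, had 3.71, 3.69 and 3.25 FPKM in intervention, 3.76, 2.42 and 2.38 in experimental and 8.02, 11.3 and 12.2 in control libraries. It lay between a neighbour that rose, mt-Rnr1, and a neighbour that fell, mt-Rnr2, in experimental against control cells. mt-Tv fell in experimental (log2 difference -1.58, SE 0.16, adjusted p = 8.98e-06) and in intervention cells (log2 difference -1.32, SE 0.16, adjusted p = 4.92e-05) against control. mt-Tg, the glycine tRNA between mt-Co3 and mt-Nd3, had 3.88, 4.18 and 3.6 FPKM in intervention, 6.07, 3.98 and 4.55 in experimental and 11.22, 11.04 and 11.77 in control libraries, so that its control libraries were the highest by a wide gap. It was at 0.343 times control in intervention (adjusted p = 4.33e-06) and 0.429 times control in experimental cells (adjusted p = 9.89e-06). Both mt-Tv and mt-Tg stayed at or below 12.2 FPKM, so with library depth unknown they may rest on few fragments.

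The cluster of 5 tRNAs between mt-Nd2 and mt-Co1 fell as a whole in both comparisons with control. Its first member, mt-Tw for tryptophan, is on the plus strand and had 77.6, 81.4 and 78.4 FPKM in intervention, 75.7, 68.2 and 68.7 in experimental and 161.6, 178.3 and 173.4 in control libraries. Its control libraries were far above the rest, with an experimental mean 0.414 times (log2 difference -1.26, SE 0.06, adjusted p = 7.29e-08) and an intervention mean 0.463 times the control mean (log2 difference -1.1, SE 0.06, adjusted p = 2.5e-07). The other members, mt-Ta for alanine, mt-Tn for asparagine, mt-Tc for cysteine and mt-Ty for tyrosine, are on the minus strand and fell less. Their experimental means were 0.621, 0.697, 0.708 and 0.747 times control, in that order along the genome, and their intervention means 0.59, 0.625, 0.625 and 0.675 times control. For these 4 genes the largest adjusted p was 5.46e-05 in experimental and 1.09e-05 in intervention against control cells, and the groups did not overlap with control. Their counting without a known strand cannot be told apart from the plus-strand precursor that crosses them.

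The 3 tRNAs between mt-Nd4 and mt-Nd5 are on the plus strand, and the last of them differed least from control. mt-Th, for histidine, had 61.2, 62.8 and 56.8 FPKM in intervention, 61.4, 49.4 and 42.1 in experimental and 129.3, 122.0 and 144.0 in control libraries. mt-Ts2, 1 of 2 serine tRNAs, had 44.9, 42.2 and 39.5 FPKM in intervention, 48.7, 36.7 and 30.0 in experimental and 104.2, 96.0 and 117.2 in control libraries. Both fell, without overlap with control: mt-Th to 0.387 times control in experimental and 0.457 times control in intervention cells, and mt-Ts2 to 0.364 times control in experimental and 0.399 times control in intervention cells, with a largest adjusted p of 2.88e-05. mt-Tl2, 1 of 2 leucine tRNAs, was at 69.7 ± 3.41 FPKM in intervention, 53.0 ± 3.75 in experimental and 75.3 ± 5.76 in control cells. It fell to 0.704 times control in experimental cells (adjusted p = 0.000112) and was not called in intervention against control cells (log2 difference -0.11, adjusted p = 0.207).

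**Figure D4:**
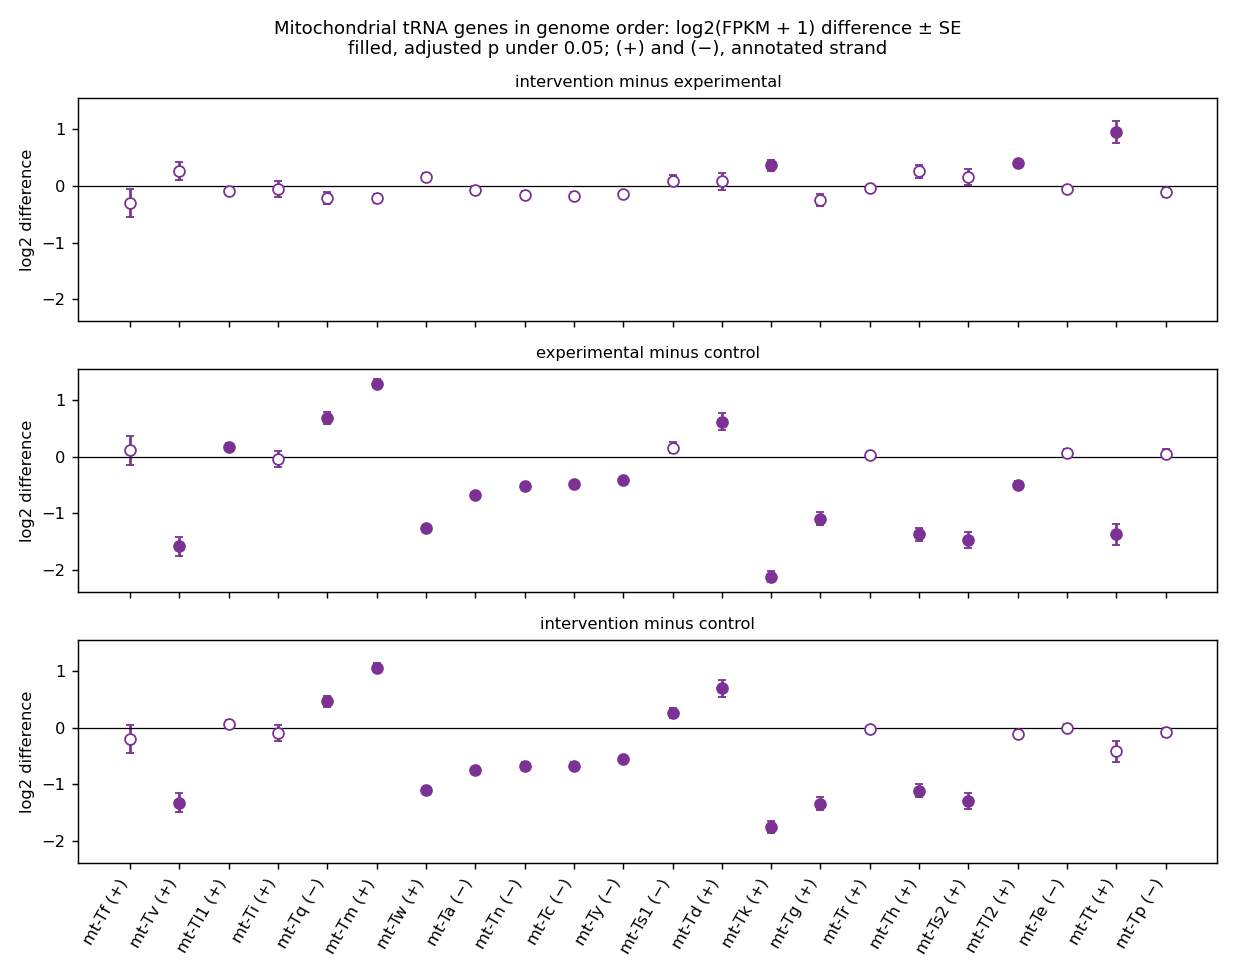
Log2(FPKM + 1) difference ± SE for the 22 mitochondrial tRNA genes in genome order, with the annotated strand in brackets, for intervention minus experimental (top), experimental minus control (middle) and intervention minus control (bottom). Filled points have an adjusted p under 0.05. mt-Tm has the highest and mt-Tk the lowest difference in both comparisons with control.

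mt-Td, the aspartate tRNA between mt-Co1 and mt-Co2, had 5.4, 8.12 and 5.36 FPKM in intervention, 5.61, 6.01 and 5.77 in experimental and 3.58, 2.7 and 4.19 in control libraries. It rose 1.66-fold in experimental (adjusted p = 0.00398) and 1.8-fold in intervention cells (adjusted p = 0.00233) against control, without overlap, and it kept both calls in all 20 alternative settings. Library depth is unknown, so at 2.7 to 8.12 FPKM over 70 bases mt-Td may rest on few fragments, and the alternative settings reuse them. The calls of mt-Tl1 and mt-Ts1 were less certain. mt-Tl1, for leucine, lies between mt-Rnr2 and mt-Nd1 and was 1.12-fold higher in experimental cells, at 1143 ± 40.9 FPKM, than in control cells, at 1019 ± 79.2 FPKM (log2 difference 0.17, adjusted p = 0.0383). That call was lost without control replicate 1 (adjusted p = 0.148), experimental replicate 1 (0.127), experimental replicate 3 (0.0825) or intervention replicate 1 (0.0505), and the difference turned to -0.20 after quantile normalization. mt-Ts1, the other serine tRNA, was called in intervention against control cells, at 502 ± 75.4 against 419 ± 26.8 FPKM (1.2-fold, adjusted p = 0.0356). Its call was lost without control replicate 1 (adjusted p = 0.113), control replicate 3 (0.0766) or intervention replicate 2 (0.0876), and without that last library its log2 difference was 0.13 in place of 0.25. mt-Ti, mt-Tr, mt-Te, mt-Tp and mt-Tf were not called in any comparison, and among them mt-Te, for glutamate, was at 628 ± 25.6 FPKM in intervention, 656 ± 21.7 in experimental and 627 ± 45.1 in control cells.

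Apart from mt-Tl1 and mt-Ts1, every tRNA called against control kept its call and its direction in each alternative setting it was run in, 15 of 16 in experimental against control and 13 of 14 in intervention against control cells. The 2 comparisons share the 3 control libraries. The stretch of the mitochondrial genome that holds the genes copied on chromosome 1 also holds mt-Ts1, mt-Td, mt-Tk, mt-Tg and mt-Tr, and whether fragments of these 5 tRNAs also match chromosome 1 was not tested.

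**Figure D5:**
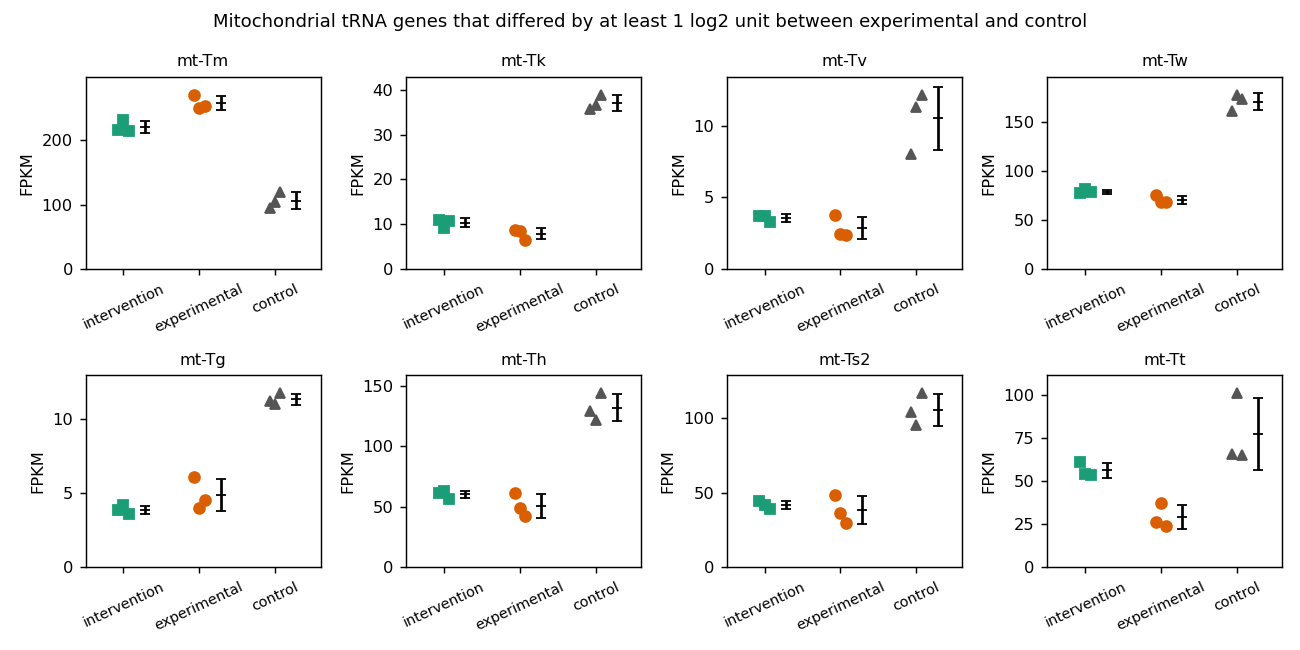
FPKM of the 8 mitochondrial tRNA genes that were called and differed by at least 1 log2 unit between experimental and control cells, 1 point per library with the mean ± SD of each group of 3 (intervention left, experimental middle, control right). mt-Tm is lowest in control libraries and the other 7 are highest there. For mt-Tm, mt-Tk, mt-Tw and mt-Tt all intervention libraries lie between the other groups.

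In intervention against experimental cells 3 of 22 tRNAs were called (13.6%, beside 19.5% of all tested entries), all 3 higher and 0 by at least 1 log2 unit (beside 0.0668%). The libraries of these 2 groups did not overlap for 9 of 22 tRNAs (40.9%, beside 42.5%). mt-Tt, the threonine tRNA between mt-Cytb and mt-Tp, had 61.2, 53.8 and 53.4 FPKM in intervention, 26.5, 37.3 and 23.9 in experimental and 65.4, 101.1 and 65.2 in control libraries. The intervention libraries were above all experimental libraries and below all control libraries. mt-Tt rose 1.92-fold in intervention against experimental cells (log2 difference 0.94, SE 0.19, adjusted p = 0.0161), fell to 0.378 times control in experimental cells (log2 difference -1.37, SE 0.19, adjusted p = 7.64e-05) and was not called in intervention against control cells (log2 difference -0.42, adjusted p = 0.0676). mt-Tl2 had 70.7, 72.5 and 65.9 FPKM in intervention, 54.6, 55.7 and 48.7 in experimental and 68.7, 77.5 and 79.6 in control libraries, so that intervention libraries were above the experimental ones and overlapped the control ones. It rose 1.31-fold in intervention against experimental cells (log2 difference 0.39, SE 0.07, adjusted p = 0.0153). mt-Tk, with the values given above, rose 1.32-fold (log2 difference 0.36, SE 0.1, adjusted p = 0.0348) and stayed far below control. At 6.45 to 11 FPKM in the intervention and experimental libraries, mt-Tk may rest on few fragments there, since library depth is unknown.

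These 3 calls were lost when any of several single libraries was left out, and so were most calls of the comparison. Without experimental replicate 1, experimental replicate 3 or intervention replicate 1, in that order, the adjusted p was 0.0624, 0.0644 and 0.063 for mt-Tt, 0.0621, 0.0641 and 0.0599 for mt-Tl2 and 0.0647, 0.0965 and 0.123 for mt-Tk, which also lost its call without intervention replicate 3 (0.0909). Over all tested entries the number of calls in intervention against experimental cells was 2337, and it was 1, 4 and 6 without experimental replicate 1, experimental replicate 3 and intervention replicate 1, and 950 without intervention replicate 3. Without control replicate 1, 5 of 22 tRNAs were called, beside 1452 entries higher and 342 lower of the 11663 tested there. Without experimental replicate 1, experimental replicate 3 and intervention replicate 1, in that order, the log2 difference of mt-Tt was 0.89, 0.81 and 0.88. In the same order it was 0.41, 0.33 and 0.38 for mt-Tl2 and 0.43, 0.24 and 0.32 for mt-Tk. The call of mt-Tk was also lost after median-ratio scaling (adjusted p = 0.097), after quantile normalization (0.119) and without a filter (0.106). It was lost as well with the replicate block or with only the 2 groups (0.0609 each). Without a filter mt-Tt lost its call too (0.0588). The directions of mt-Tt, mt-Tl2 and mt-Tk were the same in all 20 alternative settings. After median-ratio scaling 2 of 22 tRNAs were called higher and 4 lower, beside 645 higher and 792 lower of all 11974 tested entries.

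Summed over the 22 genes, the tRNAs lay lower relative to the 13 protein genes in intervention and experimental than in control libraries. The log2 ratio of the tRNA sum to the protein sum was -3.93, -3.91 and -3.98 in intervention, -3.92, -3.9 and -3.91 in experimental and -3.78, -3.74 and -3.78 in control libraries. Every intervention and experimental library was below every control library, by 0.174 on the log2 scale in intervention and 0.142 in experimental cells on average (2-sided exact permutation p = 0.1 each, the smallest possible), and the intervention and experimental libraries overlapped. With mean log2 values in place of sums, the difference from control was -0.45 in intervention and -0.496 in experimental cells (exact permutation p = 0.1 each). Taken gene by gene relative to the protein sum, 4 tRNAs were above and 12 below control in every experimental library. Across all tested entries 72.7% separated these groups on the same scale, so this count is at the background. On that scale 4 tRNAs were above and 14 below control in every intervention library, beside 64.4% of all tested entries, and 4 were above and 10 below experimental in every intervention library, beside 34.1%. Over the 66 tRNA comparisons on this scale the smallest adjusted p of the exact permutation tests was 0.138, so 0 pass a correction. The tRNA sums of the 2 strands gave no separation of the groups: the log2 ratio of the minus-strand to the plus-strand tRNA sum was 0.0837 ± 0.0606 in intervention, 0.0955 ± 0.0386 in experimental and 0.108 ± 0.0674 in control cells (SD, n = 3 each). Sums follow their highest genes, here mt-Tl1 on the plus strand and mt-Te and mt-Ts1 on the minus strand. Lower tRNAs therefore weigh little in this ratio.

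Nuclear genes of mitochondrial gene expression were read beside the members, from 6 lists of 91 genes of which 86 were tested. The lists cover maintenance of the genome, transcription, nuclear coactivators, RNA processing and modification, RNA stability and decay, and translation factors, and the 22 genes for charging tRNAs are counted apart from them. In experimental against control cells 22 were called higher and 46 lower, beside 23.5% of all tested entries higher and 50.5% lower. After median-ratio scaling the split was 31 higher and 31 lower. In intervention against control cells 25 were called higher and 30 lower, beside 24.1% and 41.1% of all tested entries, and 33 and 20 after median-ratio scaling. In intervention against experimental cells 24 were called higher and 3 lower, beside 15.9% and 3.6%, and 8 and 5 after median-ratio scaling. Without experimental replicate 1, experimental replicate 3 or intervention replicate 1 that count of 27 was 0, and it was 11 without intervention replicate 3. Over all 11974 tested entries median-ratio scaling gave 4321 higher and 4399 lower in experimental against control cells. It gave 3999 and 3787 in intervention against control, and 645 and 792 in intervention against experimental cells.

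The transcription list had members in both directions. Tfb2m, which helps the mitochondrial RNA polymerase start at its promoters, was at 10.1 ± 0.716 FPKM in intervention, 12.1 ± 1.26 in experimental and 5.42 ± 0.612 in control cells, a 2.23-fold rise in experimental against control cells (adjusted p = 3.42e-06). Tefm, the elongation factor of that polymerase, was at 2.25 ± 0.427 FPKM in intervention, 1.61 ± 0.298 in experimental and 4.52 ± 0.436 in control cells, and it fell in experimental against control cells (log2 difference -1.08, SE 0.12, adjusted p = 1.32e-05). Of the 7 tested genes of this list, 3 rose and 3 fell in experimental against control cells (42.9% each). Beside them, 23.5% of all tested entries were called higher and 50.5% lower. Among coactivators, Ppargc1a, a coactivator of mitochondrial biogenesis, fell to 0.524 times control in experimental cells (adjusted p = 7.19e-07), while its relative Pprc1 rose 1.91-fold (adjusted p = 7.46e-06).

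Genes acting on mitochondrial tRNAs formed 2 lists, for processing and modification and for charging. Trmt10c, a subunit of the enzyme that cuts the 5′ end of mitochondrial tRNAs, was at 12.4 ± 0.702 FPKM in intervention, 14.6 ± 0.817 in experimental and 6.25 ± 0.718 in control cells, a rise of 2.34-fold in experimental (adjusted p = 7.73e-07) and 1.99-fold in intervention against control cells (adjusted p = 5.5e-06). The tRNA pseudouridine synthase gene Pus1 rose 1.84-fold in experimental (adjusted p = 5.83e-07) and 1.96-fold in intervention against control cells (adjusted p = 5.82e-07). Of the 32 tested genes for processing and modification, 13 rose and 12 fell in experimental against control cells (40.6% and 37.5%, beside 23.5% of all tested entries higher and 50.5% lower), and 17 rose and 8 fell after median-ratio scaling. Of the 22 genes for charging mitochondrial tRNAs with their amino acids, 4 rose and 15 fell in the same comparison (18.2% and 68.2%), and 4 rose and 14 fell after median-ratio scaling. Gars, the glycine enzyme that serves the cytosol too, was at 159 ± 4.04 FPKM in intervention, 164 ± 3.81 in experimental and 94.2 ± 3.74 in control cells.

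In experimental against control cells 1 of the 13 tested maintenance genes rose and 11 fell (7.69% and 84.6%, beside 23.5% of all tested entries higher and 50.5% lower), and 1 rose and 8 fell after median-ratio scaling, with Dguok, a kinase that supplies deoxynucleotides, at 1.02 ± 0.0513 FPKM in intervention, 0.543 ± 0.142 in experimental and 2.15 ± 0.161 in control cells. Of the 15 tested translation factors 1 rose and 12 fell (6.67% and 80.0%), and 3 rose and 10 fell after median-ratio scaling, with Mtif2, the initiation factor, at 3.89 ± 0.617 FPKM in intervention, 3.15 ± 0.254 in experimental and 6.73 ± 0.187 in control cells. Of the 10 tested genes for RNA stability and decay 1 rose and 4 fell, and with median-ratio scaling 4 rose and 1 fell. The one that rose as deposited, Lrpprc, which binds and stabilises mitochondrial messenger RNAs, was at 27.4 ± 0.539 FPKM in intervention, 26.8 ± 0.592 in experimental and 20.4 ± 0.552 in control cells (1.31-fold in experimental against control, adjusted p = 2.53e-05). The medians of the maintenance and translation lists were -0.41 and -0.48 in experimental against control cells, beside -0.21 over all tested entries.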

How the data were processed

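The authors deposited 1 table of FPKM per gene and library. RNA came from an RNeasy kit and libraries from a SMARTer mRNA-Seq kit, per the labels' protocols, and the build was mm10, per the submitters' processing notes. The aligner, counter, annotation and strandedness were not given in the sources used here. Among 8039 nonzero values of genes shorter than 200 nt, 17.2% fell under the worth of 1 read at a depth of 200 M, so reads were not recovered, no count test was run, and precision rests on the replicates alone.

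From these values log2(FPKM + 1) was computed for the 11974 entries with at least 1 FPKM in at least 3 of 9 libraries. Fold changes on that scale understate changes of low genes. The groups were tested in limma 3.58.1 (R 4.3.3), with all 9 libraries in 1 fit, a mean-variance trend, no block and Benjamini-Hochberg adjustment over all tested entries. Folds in the text are ratios of mean FPKM. Within-library ratios were compared by 2-sided exact permutation tests, adjusted within each family. Nuclear copies were sought with BLAST 2.17.0. On data simulated for experimental against control (11974 genes), limma recovered 26, 45, 49 and 50 of 50 genes changed 1.25-, 1.5-, 2- and 4-fold. It also called 15 unchanged genes. The simulation changed a far smaller share of genes than the 74% called in the data, so its recovery need not carry over.

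The members and lists were chosen with earlier results of these data known. Every mt- gene may be named, and of the nuclear lists up to 4 genes per list and comparison with the smallest adjusted p. Alternatives covered the pseudocount, filter, scaling, samples in the fit, trend, replicate number, nuclear copies and leaving out each library.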

Additional observations from a re-analysis of the deposited data

How the results depend on the processing

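Of the 39 calls of single genes over the 3 comparisons, 29 kept call and direction in every alternative, 10 lost the call somewhere and 5 changed sign somewhere. For mt-Co1 the change of sign counted was the 0.00 of quantile normalization, which sets the top ranks equal. Of 72 uncalled values, 33 gained a call in at least 1 alternative. Adding the chromosome 1 copies was chosen after seeing the data. The planned edgeR and DESeq2 tests were not run, since the values are not counts. Where the cause of a change is not the construction of the alternative, it was not tested.

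In experimental against control cells the calls over all entries were 5702 with a mean of at least 5 FPKM, where fewer entries are tested, and 8117 to 8819 with 1 library left out. The protein genes called were 12 after median-ratio scaling, 5 after quantile normalization, 0 without a filter, with the replicate block, as TPM or scaled to the other entries, and 0 to 3 with 1 library left out. The rRNAs called were 1 after median-ratio scaling and without a filter, and 1 to 2 with 1 library left out. Machinery genes called were 33 at the higher minimum. The protein median less that of all entries was 0.28, against 0.08 without a filter and -0.01 after quantile normalization. The difference in mitochondrial share was -0.107, against 0.0245 for the protein genes alone, and -0.573 to 0.3 with 1 library left out. mt-Co1 was at 0.00, mt-Tl1 at -0.20 (quantile) and mt-Rnr2 at 0.01 (median-ratio).

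In intervention against experimental cells the calls over all entries were 1437 after median-ratio scaling, 358 without a filter, 1038 after quantile normalization, 1268 with the replicate block and 1 to 2557 with 1 library left out. Protein genes called were 1 after quantile normalization. The tRNAs called were 6 after median-ratio scaling, 1 without a filter and 0 to 5 with 1 library left out. Machinery genes called were 13, 1, 5 and 14 after median-ratio scaling, without a filter, after quantile normalization and with the replicate block, and 0 to 32 with 1 library left out. The tRNA-to-protein log2 ratio differed by -0.0321 in sums and by 0.0466 in mean log2 values.

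In intervention against control cells the calls over all entries were 5129 at the higher minimum. Protein genes called were 2 there, 6 after median-ratio scaling, 3 after quantile normalization, 0 without a filter, with only the 2 groups, with the replicate block, as TPM or scaled to the other entries, and 0 to 3 with 1 library left out. The rRNAs called were 1 under all 4 scalings, without a filter, without a trend and with the replicate block, and 1 to 2 with 1 library left out. Machinery genes called were 26 at the higher minimum, the protein median was -0.02 after quantile normalization, and mt-Co1 and mt-Rnr1 were at -0.00 there. Same-numbered libraries of 2 groups had correlations of -0.182 to 0.11 in their deviations from the group means, so the numbers were not taken to pair them, and the block changed no other count by over 1.5 times.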
